A study of Mus musculus with 8 samples.

Results

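Open chromatin was examined at 42 interferon-stimulated and antigen presentation genes in mouse bone marrow-derived macrophages (BMDMs) profiled by ATAC-seq, an assay that reads out accessible DNA from where a transposase can cut. A peak counted as belonging to one of these genes when the deposited annotation assigned it to that gene and its center lay within 100 kb of the transcription start site (TSS). By this rule 18 of the 9698 peaks found in WT cells lay at 14 of the 42 genes, out of 6598 genes with any such peak. In the separate table of NCoR f/f cells, 67 of 24867 peaks lay at 34 of the 42 genes, out of 12056 genes.

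WT BMDMs from C57BL/6 mice received vehicle (Veh), KLA for 6 h, or RGFP966 with KLA, with 2 libraries per condition. KLA is Kdo2 lipid A, a pure ligand of the endotoxin receptor TLR4, and RGFP966 is an inhibitor of HDAC3, the histone deacetylase held in the corepressor complexes of NCoR and SMRT. A further 2 libraries, also labelled C57BL/6, came from Veh cells of the genotype NCoR1 flox/flox (NCoR f/f), in which both alleles of NCoR1 carry loxP sites. Their labels name no Cre driver, so these cells stand for floxed controls. All 8 libraries were labelled 6 h. The titles of the RGFP966 libraries name the inhibitor and their treatment entry names KLA alone, and they were taken as RGFP966 + KLA. Nothing in the labels tells separate mice or cultures from repeat libraries of 1 culture, so p-values measure only the spread between these libraries, which may be technical. In such bulk samples, a change in how many cells are open at a site and a change in how open each cell is cannot be told apart.

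The WT libraries held between 116733 and 202523 tags in peaks, which was 1.40 to 2.06% of their tags, and the NCoR f/f libraries held 372367 and 509741. At this depth a peak at these genes typically had about 10.4 tags per WT library, against 13.2 for the median of all WT peaks. Levels are given as tags per 100000 tags in peaks of the same library, and intervals are 95% intervals that cover counting error only. The macrophage marker Cd68 had a peak within 2 kb of the TSS in both tables, while Csf1r, Adgre1 and Lyz2 had none in either and Spi1, Itgam, Mertk, Cd14 and Fcgr1 had one in the NCoR f/f table alone. None of the 6 T cell, 5 B cell, 5 neutrophil and 5 fibroblast markers had such a peak in either table, while among 4 endothelial markers Kdr and Pecam1 had one in the NCoR f/f table.

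As background, TLR4 signals through the adaptors MyD88 and TRIF, and the TRIF branch, through IRF3, induces interferon beta, which then acts back on the macrophage. Type I interferon acts through the interferon-stimulated response element (ISRE) in the promoters and enhancers of antiviral genes. Interferon gamma acts mainly through another element, the gamma-activated site (GAS). The induced proteins sense or degrade viral RNA, trap virus particles, tag proteins with ubiquitin-like ISG15, or load peptides on major histocompatibility complex class I.

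The sequences of the peaks called as gained in any comparison below are shown first, because their letters can be set beside the motif counts, with genome positions on the mm10 build. Each is read on the plus strand, in lower case, and capitals mark a match to the ISRE letters GAAANNGAAA on either strand. The Isg20 stretch is the part of its promoter peak upstream of the first annotated exon (chr7:78913681-78913764). The Gbp2 stretch is the ISRE match with 10 bases on each side (chr3:142620594-142620623), and the part of the Parp14 peak outside annotated exons lies at chr16:35843995-35844243, in intron 12 of 16. The last is the whole peak downstream of Rsad2 (chr12:26439441-26439649), in intergenic DNA.
Isg20 promoter: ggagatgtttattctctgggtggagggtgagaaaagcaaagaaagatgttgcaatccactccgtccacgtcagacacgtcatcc
Gbp2 promoter site: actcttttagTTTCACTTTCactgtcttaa
Parp14 intron 12: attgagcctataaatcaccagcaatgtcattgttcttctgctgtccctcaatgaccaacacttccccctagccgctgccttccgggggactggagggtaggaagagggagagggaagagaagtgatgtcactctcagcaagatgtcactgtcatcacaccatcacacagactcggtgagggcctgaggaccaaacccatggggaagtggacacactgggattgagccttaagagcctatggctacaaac
Rsad2 downstream: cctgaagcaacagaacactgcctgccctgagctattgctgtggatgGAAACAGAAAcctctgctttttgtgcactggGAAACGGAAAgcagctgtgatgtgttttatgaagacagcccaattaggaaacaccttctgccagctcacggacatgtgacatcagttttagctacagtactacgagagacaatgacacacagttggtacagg

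The Isg20 and Parp14 intron 12 stretches hold no ISRE letters, the Gbp2 peak holds 1 match and the Rsad2 downstream peak holds 2. The other peaks with a match are shown as the matches and up to 20 bases around them, since they carry the element without a call as gained. They lie at chr2:173218939-173219042 for Zbp1, chr2:122147528-122147577 for B2m, chr3:142530263-142530312 for Gbp7, chr16:35869290-35869339 for Parp14 and chr12:26460212-26460292 for Rsad2.
Zbp1 promoter: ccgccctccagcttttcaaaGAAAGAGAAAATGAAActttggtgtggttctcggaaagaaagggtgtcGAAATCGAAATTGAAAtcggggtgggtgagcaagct
B2m promoter: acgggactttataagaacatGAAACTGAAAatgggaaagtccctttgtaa
Gbp7 promoter: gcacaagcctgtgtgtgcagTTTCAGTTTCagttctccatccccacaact
Parp14 intron 1: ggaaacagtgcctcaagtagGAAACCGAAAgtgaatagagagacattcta
Rsad2 upstream: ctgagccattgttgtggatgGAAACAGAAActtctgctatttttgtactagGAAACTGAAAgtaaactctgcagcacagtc

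The ISRE letters were found in 7 of the 18 WT peaks at these genes, or 38.9%, when the central 200 bp of each peak were searched on both strands. Of all 9527 WT peaks on the chromosomes searched, 2.50% held them. At peaks within 2 kb of the TSS the shares were 4 of 8 against 1.43% of all promoter peaks, and beyond 2 kb they were 3 of 10 against 3.64%. In the NCoR f/f table the letters were found in 16 of 67 peaks, or 23.9%, against 2.33% of all peaks, and 14 of those 16 lay within 2 kb of the TSS. The Zbp1 promoter held 4 matches, and Zbp1 is a sensor of left-handed nucleic acid. The 2 peaks assigned to Rsad2 each held a pair of matches spaced 31 bp apart, and the windows shown for them were identical at 55 of 81 bases.

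Pooled over distances, the shares for the other motifs lay closer to those of all peaks than the ISRE share did. The GAS letters TTCNNNGAA were found in 2 of 18 WT peaks, those at the Gbp7 and Zbp1 promoters, against 5.31% of all WT peaks. The NFkB consensus was found in 2, at the B2m promoter and Parp14 intron 1, against 4.90%. The AP-1 letters TGACTCA or TGAGTCA were found in 4 (Isg20, Gbp2, the distal Mx1 peak and the Adar intron 1 peak), or 22.2% against 15.7%. Within 2 kb of the TSS, AP-1 letters were found in 2 of 8 peaks against 3.79% and GAS letters in 2 of 8 against 4.20%, while beyond 2 kb AP-1 letters were found in 2 of 10 against 28.3% and GAS letters in 0 of 10 against 6.49%. The PU.1 letters GAGGAAGT were found in 2 of 18 against 7.52%. Matches of different motifs may overlap, and each is a match of letters in a window and not a measured binding site. The median GC content was 50.2% for these peaks and 56.5% for all WT peaks.

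**Figure D1:**
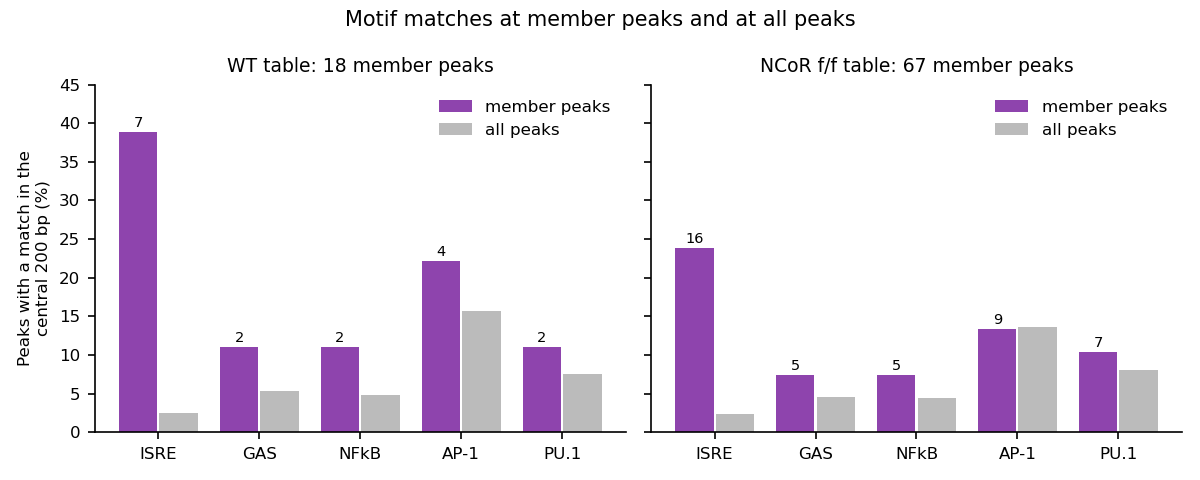
Bars give the percentage of peaks with a motif match in the central 200 bp, for the peaks at the interferon-stimulated and antigen presentation genes (purple, number of peaks above the bar) and for all peaks (grey), in the WT table and the NCoR f/f table. The ISRE bar stands at 38.9% against 2.50% in the WT table and at 23.9% against 2.33% in the NCoR f/f table.

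The WT peaks covered the functional groups unequally. Antiviral enzymes and GTPases had a peak at 6 of 10 genes, RNA-binding proteins and nucleases at 4 of 13, and the ISG15 system at 2 of 4. ADP-ribosylation enzymes and ubiquitin ligases had a peak at 1 of 6 genes, antigen presentation genes at 1 of 4, and none of the 3 RNA sensors Ifih1, Ddx58 and Dhx58 had one. Of the 28 genes without a WT peak, Usp18, Ifit1, Ifit2, Ifit3, Oas2, Eif2ak2, Xaf1, Ifih1, Ddx58, Dhx58, Mx2, Bst2, Gbp3, Dtx3l, Trim21, Trim30a, Ifi35, Ifi44, Tap1 and Tapbp had one in the NCoR f/f table, which is 20 genes. Isg15, Oasl1, Oasl2, Oas1a, Parp9, Samd9l, Rnf213 and Nlrc5 had none in either table. A missing peak says that no reproducible peak was assigned to the gene at this depth, not that the locus was closed. A peak within 1 kb of a Tapbp TSS was assigned to Zbtb22 in the WT table, with 19 and 10 tags at Veh, 11 and 8 after KLA, and 16 and 8 with RGFP966 + KLA. In the NCoR f/f table, peaks within 1 kb of the TSS of Parp9, Rnf213 and Nlrc5 were likewise assigned to Dtx3l, Mir1932 and 9330175E14Rik.

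Most of the WT peaks at these genes were not among the peaks the authors found reproducible at Veh. The Veh set held 4 of the 18, or 22.2%, against 48.9% of all WT peaks, and 5 were in the KLA set alone, or 27.8% against 7.60%. A further 5 were in the RGFP966 + KLA set alone, or 27.8% against 30.0%. How a peak was listed in part fixes its direction in each comparison, since a peak enters the table through the libraries where it is high. The peaks of the KLA set alone were B2m, Gbp2, Isg20, Oas3 and Zbp1, and those of the KLA and RGFP966 + KLA sets without Veh were the Parp14 intron 12 peak, the Mx1 promoter, Cmpk2 and Gbp5. These 2 classes were listed from KLA and not from Veh libraries, which favours a higher level for KLA against Veh, and the first of them also favours a lower level for RGFP966 + KLA against KLA. The peaks of the RGFP966 + KLA set alone were the peaks in intron 1 of Adar and of Parp14, the Herc6 peak and both Rsad2 peaks, which favours a higher level with RGFP966 + KLA in both of its comparisons. The Veh set alone held the Adar promoter and the distal Mx1 peak, which favours a lower level in the other conditions. Gbp7 was in the Veh and RGFP966 + KLA sets and Trim25 was in all 3.

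KLA was compared with Veh to ask where chromatin opened or closed after TLR4 ligation. Of the 18 peaks, 3 were gained and 1 was lost, at an adjusted p under 0.05 and a change over 2-fold. The gained peaks lay at the Isg20 promoter, the Gbp2 promoter and intron 12 of Parp14, and the lost peak lay at the Adar promoter. Of all 9698 peaks, 3.30% were gained and 1.73% were lost by the same rule. The median log2 fold change was 0.95 for the 18 peaks and 0.02 for all peaks, and 15 of the 18 were higher after KLA. All 4 called peaks were listed from one of the compared conditions and not the other, so neither the counts nor the median are independent of the listing. An unadjusted p under 0.05 was found for 9 of the 18, against 19.5% of all peaks. With DESeq2 none of the 18 passed, and 4 had an unadjusted p under 0.05. The share of all peaks that passed with DESeq2 is not given, so these counts cannot be set against it. By edgeR the count of called peaks was below 4 without either Veh library or without KLA replicate 1. Each of these fits left 1 library in a group. The share of all peaks called in them is not given, so the drop cannot be set against it.

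Among RNA-binding proteins and nucleases, the Isg20 promoter peak changed most. Isg20 is an exonuclease that degrades single-stranded RNA. Its peak (chr7:78913681-78913882) had 2 and 1 tags at Veh, 17 and 7 after KLA, and 7 and 7 with RGFP966 + KLA. Both Veh libraries were low and both KLA libraries lay above them. The level was 1.19 ± 0.513 at Veh and 7.54 ± 2.19 after KLA (SD, n = 2), a log2 fold change of 2.64 with an adjusted p of 0.00781 by edgeR. The ratio of the tags was 6.59, with a counting interval of 2.00 to 34.2, because the Veh libraries held 3 tags in all. The call was lost without either Veh library or without KLA replicate 1, at adjusted p between 0.0651 and 0.183.

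Adar, which edits adenosines in double-stranded RNA, had the lost peak, which was listed from Veh libraries alone. At its promoter (chr3:89730394-89730764) there were 15 and 15 tags at Veh, 10 and 4 after KLA, and 8 and 8 with RGFP966 + KLA. Every Veh library lay above every KLA library. The log2 fold change was -1.37 with an adjusted p of 0.0489, close to the threshold, and the ratio was 0.384 (0.188 to 0.747). The call was lost when any 1 library was left out, at adjusted p between 0.0639 and 0.186. The peak in intron 1 of 14, 3498 bp upstream of its assigned TSS, had 4 and 6 tags at Veh, 12 and 5 after KLA, and 10 and 10 with RGFP966 + KLA, with overlapping levels at Veh and KLA and an adjusted p of 0.703.

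Oas3 makes the oligoadenylate messenger that switches on RNase L. The Oas3 peak in intron 1 of 15 (chr5:120775348-120775966) had 13 and 4 tags at Veh, 18 and 19 after KLA, and 22 and 19 with RGFP966 + KLA. Veh replicate 1 lay above the lower KLA library in level, so the groups overlapped, and the log2 fold change was 0.84 with an adjusted p of 0.264. At the Zbp1 promoter (chr2:173218858-173219075) there were 4 and 3 tags at Veh, 11 and 8 after KLA, and 7 and 12 with RGFP966 + KLA. Both KLA libraries of Zbp1 lay above both Veh libraries, and the log2 fold change of 1.14 had an adjusted p of 0.271.

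Among antiviral enzymes and GTPases, the guanylate-binding proteins, which coat and break open the vacuoles of intracellular microbes, had a WT peak at Gbp2, Gbp5 and Gbp7, and the Gbp2 peak was called. The Gbp2 promoter peak (chr3:142620519-142620738) had 2 and 2 tags at Veh, 17 and 8 after KLA, and 11 and 8 with RGFP966 + KLA. Its Veh libraries were the lowest, at 1.60 ± 0.0710 per 100000 against 7.97 ± 1.58 after KLA (SD, n = 2). The log2 fold change was 2.31 with an adjusted p of 0.0143, and the ratio was 5.15 (1.78 to 20.3). Without either Veh library or without KLA replicate 1 the adjusted p was between 0.0939 and 0.183. An intergenic peak 18374 bp upstream of Gbp5 had 4 and 5 tags at Veh, 14 and 14 after KLA, and 12 and 15 with RGFP966 + KLA. Its groups did not overlap either, but the log2 fold change of 1.34 had an adjusted p of 0.109. At the Gbp7 promoter there were 17 and 13 tags at Veh, 17 and 4 after KLA, and 16 and 14 with RGFP966 + KLA. Gbp7 was the one of these with lower levels in both KLA libraries, with a log2 fold change of -0.79 and an adjusted p of 0.279.

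Rsad2 (viperin) makes an antiviral chain terminator, and Cmpk2 is the nucleotide kinase encoded beside it. The peak downstream of Rsad2, 16907 bp from its TSS, had 1 and 1 tags at Veh, 6 and 5 after KLA, and 12 and 15 with RGFP966 + KLA. The 3 conditions did not overlap in level, and for KLA against Veh the log2 fold change was 2.07 with an adjusted p of 0.168 and a ratio of 4.53 (0.988 to 42.0). The peak 3870 bp upstream of Rsad2, which lies between the start sites of Rsad2 and Cmpk2, had 3 and 6 tags at Veh, 12 and 11 after KLA, and 14 and 15 with RGFP966 + KLA. Its log2 fold change was 1.06 with an adjusted p of 0.256. The Cmpk2 promoter peak (chr12:26469100-26469446) had 12 and 3 tags at Veh, 17 and 10 after KLA, and 20 and 15 with RGFP966 + KLA. The Veh libraries of Cmpk2 lay on both sides of the KLA libraries, and the adjusted p was 0.557.

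Mx1 encodes a dynamin-like GTPase. The Mx1 promoter peak (chr16:97462790-97463212) had 10 and 0 tags at Veh, 16 and 15 after KLA, and 16 and 12 with RGFP966 + KLA. The 0 tags in Veh replicate 2 allow up to 2.48 per 100000. The log2 fold change was 1.33 with an adjusted p of 0.138. Veh replicate 1, at 7.75 per 100000, lay just below the lower KLA library at 8.56. A second peak assigned to Mx1 lay 31429 bp downstream, inside intron 8 of 8 of the neighbouring gene Bace2, with 11 and 11 tags at Veh, 8 and 8 after KLA, and 18 and 9 with RGFP966 + KLA. This one was lower in both KLA libraries, with a log2 fold change of -0.73 and an adjusted p of 0.41.

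Parp14, an ADP-ribosyltransferase of the macrodomain family, had the smallest adjusted p of the 14 loci. The peak in intron 12 (chr16:35843995-35844271), 27249 bp downstream of the TSS, had 1 and 3 tags at Veh, 20 and 9 after KLA, and 16 and 15 with RGFP966 + KLA. All 4 libraries with KLA lay above both Veh libraries, and the log2 fold change for KLA against Veh was 2.52 with an adjusted p of 0.00757 and a ratio of 5.97 (2.10 to 23.4). The adjusted p was 0.155 without Veh replicate 1 and 0.125 without KLA replicate 1. The peak in intron 1 of 16 (chr16:35869131-35869450) had 2 and 4 tags at Veh, 18 and 6 after KLA, and 12 and 13 with RGFP966 + KLA. Its groups did not overlap, and its log2 fold change of 1.69 had an adjusted p of 0.0706. With both peaks summed, Parp14 had a log2 fold change of 2.10 and an adjusted p of 0.000526, which became 0.0811 without Veh replicate 1 and 0.144 without KLA replicate 1.

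The remaining loci had no call. Trim25 is the ubiquitin ligase that activates the RNA sensor encoded by Ddx58, and its intergenic peak 25023 bp downstream was the only one found reproducible in all 3 conditions. It had 19 and 13 tags at Veh, 25 and 18 after KLA, and 24 and 21 with RGFP966 + KLA, with overlapping levels at Veh and KLA and an adjusted p of 0.876. Herc6, the ligase that attaches ISG15 in mice, had a peak 9252 bp upstream, with 8 and 4 tags at Veh, 10 and 5 after KLA, and 15 and 17 with RGFP966 + KLA, and an adjusted p of 0.982. B2m, the invariant light chain of class I molecules, was the one antigen presentation gene with a WT peak, at its promoter, with 14 and 4 tags at Veh, 16 and 10 after KLA, and 14 and 9 with RGFP966 + KLA. The Veh libraries of B2m spanned the KLA libraries, and the adjusted p was 0.834.

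**Figure D2:**
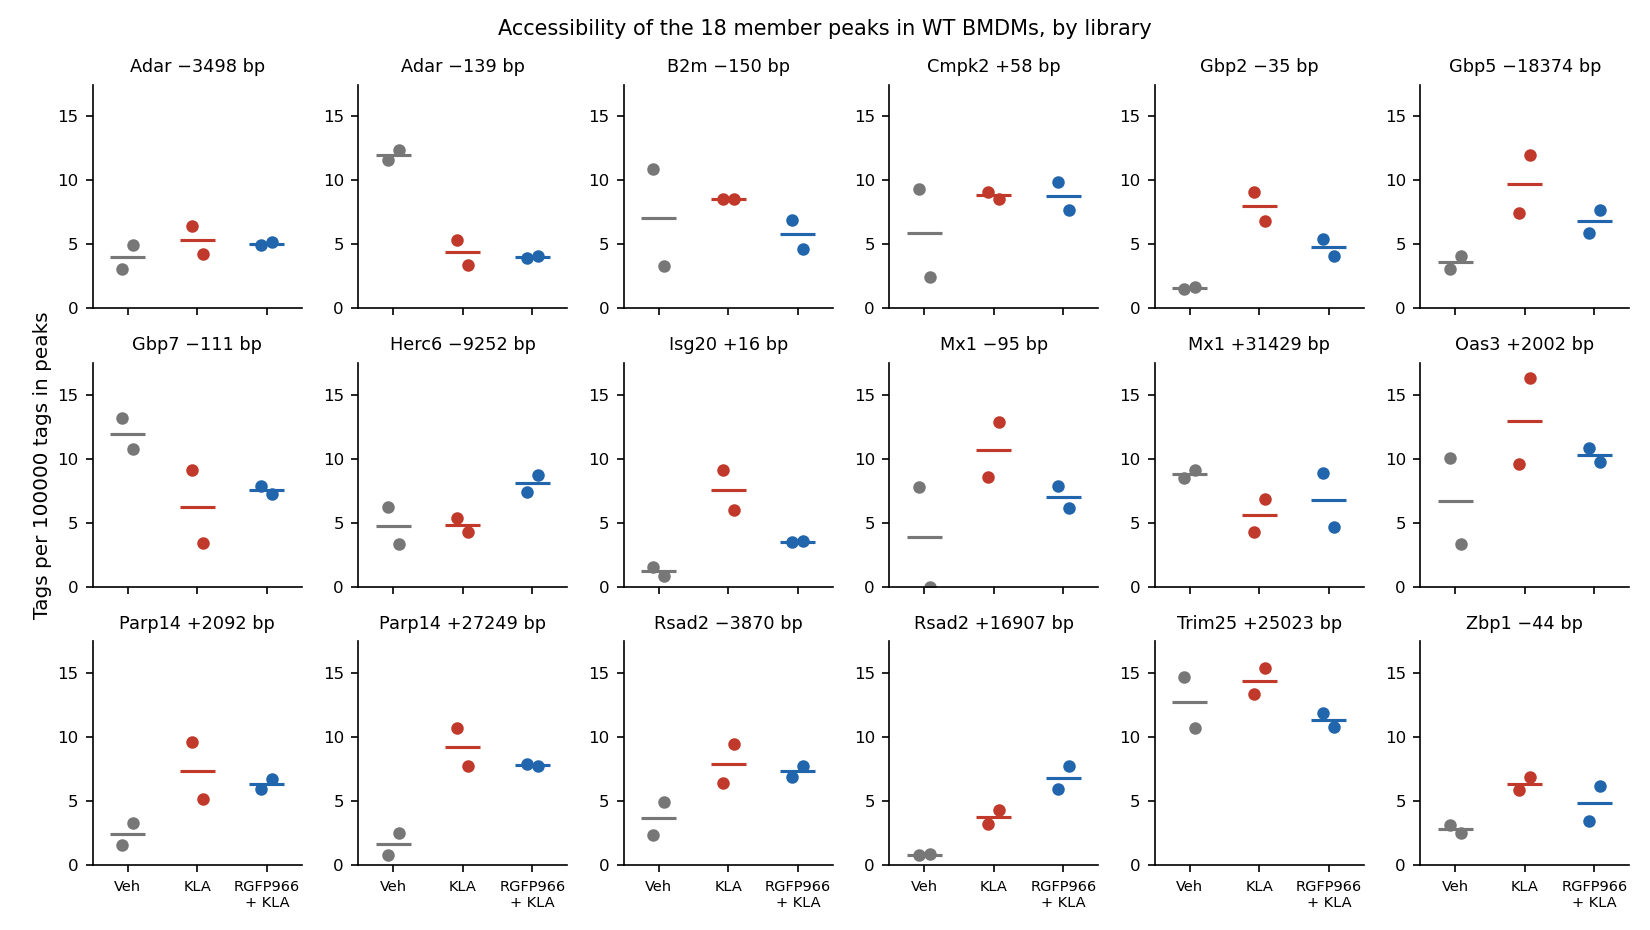
Points give the level of each WT peak at these genes in every library of Veh, KLA and RGFP966 + KLA, in tags per 100000 tags in peaks. Replicate 1 is on the left and replicate 2 on the right, with a line at their mean. At Isg20, Gbp2 and the Parp14 intron 12 peak the Veh points sit at the bottom, between 0.775 and 2.48, and the KLA points between 6.00 and 10.7.

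Summed per gene over all its peaks, Parp14, Isg20 and Gbp2 were gained among the 14 loci, against 3.64% of all genes called in either direction. Isg20 and Gbp2 had 1 peak each, so their loci repeat the peak tests above. All peaks at these 3 loci were listed without Veh libraries, so this count is not independent of the listing. Fewer of these 3 loci passed without either Veh library or without KLA replicate 1, where 1 condition held 1 library. The summed Rsad2 locus had a log2 fold change of 1.33 and an adjusted p of 0.0788. Both KLA libraries lay above both Veh libraries at 9 of the 18 peaks and below them at 3 (the Adar promoter, Gbp7 and the distal Mx1 peak). Over all WT peaks, 25.3% were separated upward and 22.6% downward in this comparison. All 9 peaks separated upward were listed without Veh libraries. All 3 separated downward were listed from Veh libraries and not from libraries with KLA alone. These counts are therefore not independent of the listing.

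RGFP966 + KLA was then compared with KLA, which asks how stimulated cells with the inhibitor differed from those without it. The paper states that RGFP966 was given together with the serum starvation, which came before KLA. No condition had RGFP966 alone, so a change already present before KLA cannot be told apart from a change in the response to KLA. None of the 18 peaks and none of the 14 loci passed with edgeR or DESeq2, and by edgeR 1 peak had an unadjusted p under 0.05, against 13.8% of all peaks. Of all peaks, 0.237% were gained and 0.103% were lost in this comparison, and 0.288% of genes were called on summed tags. The median log2 fold change of the 18 peaks was -0.26, against 0.03 for all peaks, and 14 of the 18 were lower with the inhibitor. Both RGFP966 + KLA libraries lay above both KLA libraries at 2 peaks, those upstream of Herc6 and downstream of Rsad2, against 25.7% of all peaks. Both of these were listed from RGFP966 + KLA libraries alone. Both RGFP966 + KLA libraries were below both KLA libraries at 5, namely Isg20, Gbp2, B2m, the Mx1 promoter and Trim25, against 20.1%, and the first 3 of these were listed from KLA libraries alone.

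At the Isg20 promoter the level was 7.54 ± 2.19 with KLA and 3.53 ± 0.105 with RGFP966 + KLA (SD, n = 2). The ratio was 0.447 (0.214 to 0.899), and the log2 fold change of -1.15 had an adjusted p of 0.24. Gbp2 had a log2 fold change of -0.77 with an adjusted p of 0.406 and a ratio of 0.582 (0.303 to 1.10). Both peaks were listed from KLA libraries alone and called as gained with the same KLA libraries, which favours a lower level with the inhibitor. The ratio was 0.692 (0.400 to 1.19) for the Mx1 promoter and 0.677 (0.369 to 1.23) for B2m. Trim25 had a log2 fold change of -0.32 and an adjusted p of 0.68.

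The peak downstream of Rsad2 had 3.75 ± 0.760 with KLA and 6.82 ± 1.27 with RGFP966 + KLA (SD, n = 2). Its log2 fold change was 0.90 with an adjusted p of 0.40, and its ratio of 1.88 had an interval of 0.902 to 4.20. The Herc6 peak, which lies in a long terminal repeat annotated as RMER20C, had a log2 fold change of 0.70 and an adjusted p of 0.462, with a ratio of 1.63 (0.859 to 3.25). At the Parp14 locus the ratio of the summed tags was 0.809 (0.546 to 1.20). The counting intervals leave room for a change of 1.5-fold in at least 1 direction at all 18 peaks, so a missing call does not show that the inhibitor left them as they were.

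RGFP966 + KLA was also set against Veh, a comparison that shares its libraries with the other comparisons and is given beside them. Here 2 of the 18 peaks were gained and 1 was lost, against 6.89% and 2.99% of all peaks. The gained peaks were the one downstream of Rsad2, listed from RGFP966 + KLA libraries alone, and the one in Parp14 intron 12, listed from KLA and RGFP966 + KLA libraries. For the Rsad2 peak the log2 fold change was 2.97 with an adjusted p of 0.00329 and a ratio of 8.51 (2.14 to 73.8), where KLA alone had given 2.07 with an adjusted p of 0.168. Without Veh replicate 1 or RGFP966 + KLA replicate 2 the adjusted p of this gain was 0.0690 and 0.0575. For Parp14 intron 12 the log2 fold change was 2.23 with an adjusted p of 0.0122 and a ratio of 4.88 (1.73 to 19.0). The count of called peaks was below 3 without any 1 of the Veh or RGFP966 + KLA libraries, where 1 condition held 1 library. The Adar promoter, listed from Veh libraries alone, was the lost peak, with a log2 fold change of -1.55 and an adjusted p of 0.0102. On summed tags the Parp14 locus (1.80, adjusted p of 0.00305) and the Rsad2 locus (1.66, adjusted p of 0.00471) were gained, by log2 fold change, against 7.81% of all genes called in either direction, and neither passed without Veh replicate 1. The Isg20 and Gbp2 promoters had ratios of 2.94 (0.821 to 16) and 2.99 (0.995 to 12.1) in this comparison and were not called.

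**Figure D3:**
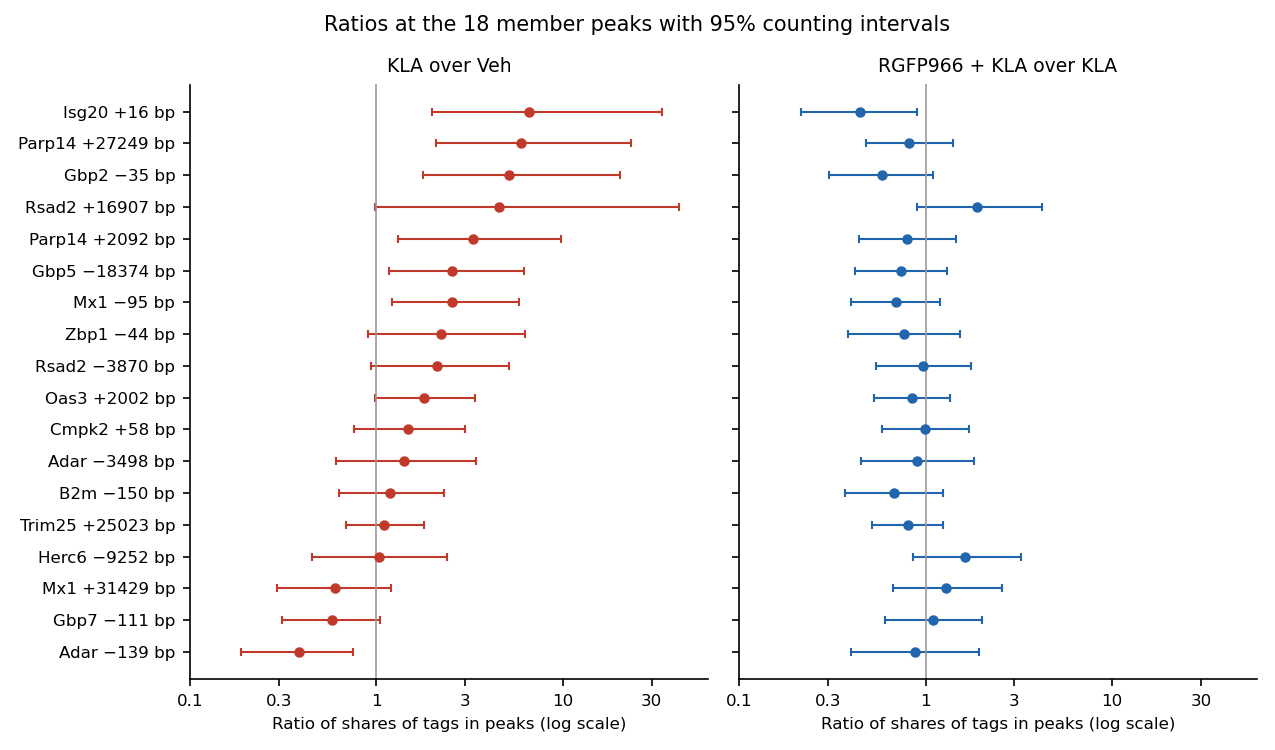
Points give the ratio of tags per 100000 for each WT peak at these genes, on a log axis, for KLA over Veh and RGFP966 + KLA over KLA, and lines give the 95% counting intervals. For KLA over Veh the ratios run from 0.384 at the Adar promoter to 6.59 at Isg20, and for RGFP966 + KLA over KLA they run from 0.447 at Isg20 to 1.88 downstream of Rsad2.

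Taken as 1 quantity, the 18 peaks held 110 and 80.9 tags per 100000 at Veh, 141 and 142 after KLA, and 125 and 120 with RGFP966 + KLA. Both KLA libraries lay above both Veh libraries, and both RGFP966 + KLA libraries lay between the Veh and the KLA libraries. The ratio was 1.47 (1.26 to 1.73) for KLA over Veh, 0.869 (0.762 to 0.992) for RGFP966 + KLA over KLA and 1.28 (1.10 to 1.5) for RGFP966 + KLA over Veh. Of the 18 peaks, 4 were in the Veh set, 5 in the KLA set alone and 5 in the RGFP966 + KLA set alone. This listing favours a higher sum with KLA than at Veh, so the ratios over Veh are not independent of it. For RGFP966 + KLA over KLA, the peaks listed from 1 of these conditions alone favour opposite directions. The order of the conditions depended on the denominator. Per 1000000 tags of the whole library, the levels were 22.7 and 11.4 at Veh, 24.8 and 20.5 after KLA, and 23.1 and 21.6 with RGFP966 + KLA. On that scale the Veh and KLA libraries overlapped, the RGFP966 + KLA libraries lay within the range of the KLA libraries, and the ratio of RGFP966 + KLA over KLA was 0.976. Without the peaks called in any comparison, KLA over Veh was 1.37. Most of the peaks left were also listed from KLA or RGFP966 + KLA libraries and not from Veh, so the listing favours a higher level here too.

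With the cut set at 2 kb, most of the difference between Veh and KLA lay in the 10 peaks beyond 2 kb of the TSS. These went from 49.1 ± 2.91 at Veh to 81.1 ± 6.51 after KLA and 76.6 ± 0.132 with RGFP966 + KLA (SD, n = 2). The Oas3 and Parp14 intron 1 peaks among them lay just past the cut, at 2002 and 2092 bp. Their mean levels went from 6.69 to 12.95 and from 2.43 to 7.38 with KLA, so the split between promoter and distal peaks depends on the cut. The 8 promoter peaks had 46.4 ± 17.7, 60.6 ± 5.77 and 46.3 ± 3.62 per 100000, so at promoters the Veh libraries differed from each other more than the conditions did on average. In both classes most peaks were listed without Veh libraries, which favours a higher level than at Veh. Over all WT peaks, those beyond 2 kb held 39.7 and 41.6% of tags in peaks at Veh. They held 42.5 and 43.5% after KLA, and 44.1 and 43.9% with RGFP966 + KLA.

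**Figure D4:**
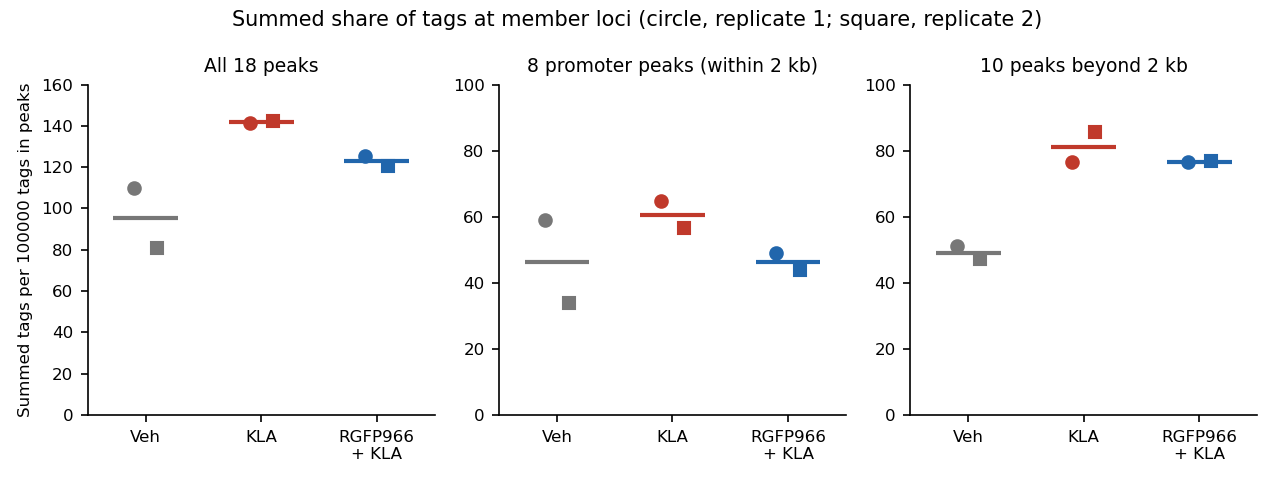
Points give the summed level of the peaks at these genes in each WT library, in tags per 100000 tags in peaks, for all 18 peaks, the 8 promoter peaks and the 10 peaks beyond 2 kb, with a line at the mean of the 2 libraries. Beyond 2 kb both Veh points lie below all points with KLA, and at promoters the Veh points, 58.9 and 33.9, lie far apart. Most of the peaks beyond 2 kb were listed without Veh libraries, which favours lower Veh points.

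In NCoR f/f cells at Veh, the peaks at these genes summed to 185 and 171 tags per 100000, with 133 ± 3.70 (SD, n = 2) in the 44 peaks within 2 kb of a TSS. This table has its own peaks and was merged over more conditions, so its levels were not tested against the WT table. Promoter peaks made up 65.7% of the peaks at these genes and 47.8% of all peaks. Of the 67 peaks, 29 were in the set found reproducible in NCoR f/f Veh cells, or 43.3% against 62.2% of all peaks. A further 31 were in the NCoR f/f KLA set and not the Veh set, or 46.3% against 28.7%, and 7 came from sets of NCoR knockout cells alone, or 10.4% against 9.04%. The peaks in the Veh set had a median of 15 and 17 tags in the 2 Veh libraries and those listed from KLA but not Veh had 5 and 7. Over all peaks the medians were 16 and 22 in the Veh set and 7 and 10 for KLA but not Veh, a gap that the listing favours. The KLA and NCoR knockout libraries behind those sets were not analysed here.

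The highest loci in NCoR f/f cells were Trim25, Adar and Trim30a, at 12.6, 11.5 and 11.1 tags per 100000. Trim30a, an interferon-induced ubiquitin ligase, had 43 and 54 tags over 4 promoter peaks, and Adar had 46 and 54 over 5 peaks. Oas3 and Mx2 followed at 9.69 and 9.18. Mx2 had 26 and 58 tags, the widest gap between the 2 libraries among these loci, and its order against Oas3 and Mx1 (8.61) is within that gap. Among RNA sensors, Dhx58 had 21 and 31 tags, Ifih1 had 14 and 18, and Ddx58 had 10 and 16 and no peak within 2 kb of its TSS. Among antigen presentation genes, the peptide transporter Tap1 had 24 and 33 tags in 1 promoter peak, B2m had 21 and 31, and Tapbp, the chaperone tapasin, had 13 and 26 over 3 peaks. The lowest loci with a peak were Ifi44 (0.966), Gbp2 (1.06), Rsad2 (1.32), Ifit3 (1.38) and Ifit1 (1.39). Ifit1, Ifit2 and Ifit3, whose products assemble on foreign RNA, had 6 and 6, 12 and 15, and 3 and 10 tags.

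Of the 18 WT peaks at these genes, 15 coincided with NCoR f/f peaks by at least 1 base, and 10 of those were in its Veh set. The exceptions were the Gbp2 promoter peak and both distal Rsad2 peaks. The share of all WT peaks that coincide with NCoR f/f peaks was not worked out, so these counts cannot be set against it. At Rsad2, the NCoR f/f table had a peak 108 bp downstream of the TSS with 2 and 6 tags and one 14365 bp downstream with 2 and 2. At the counterparts of the WT Parp14 peaks, NCoR f/f Veh cells had 14 and 7 tags in intron 1 and 12 and 7 in intron 12, and neither was in the Veh set.

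**Figure D5:**
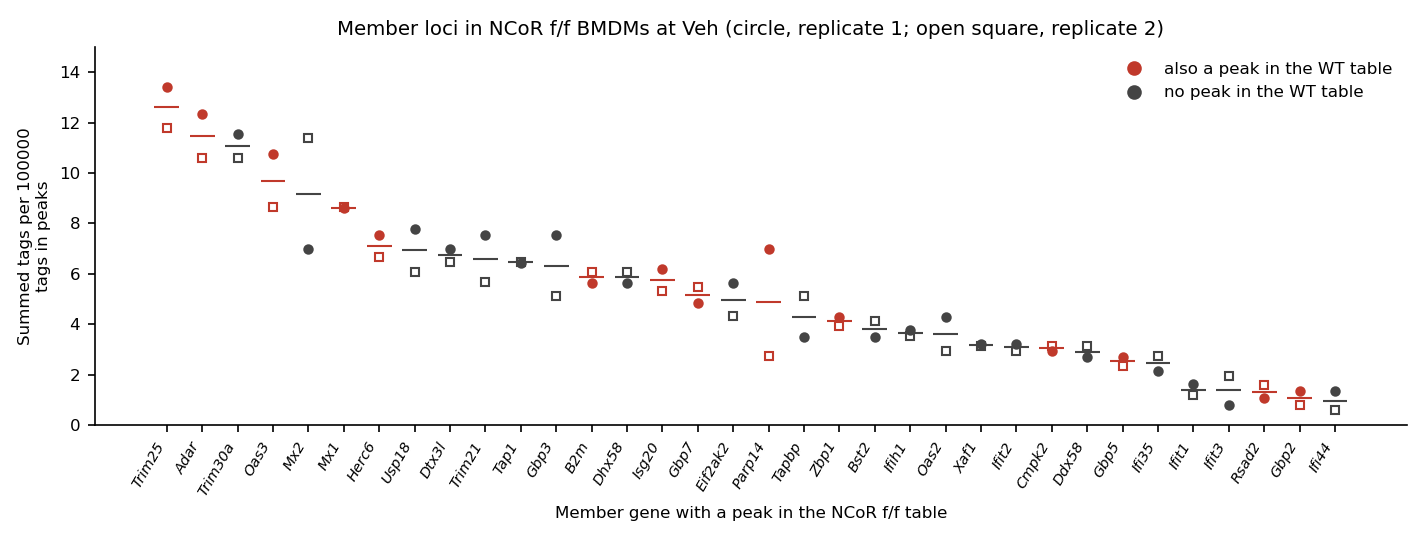
Points give the level summed per gene in the 2 NCoR f/f Veh libraries, in tags per 100000 tags in peaks, for the 34 genes with a peak. Trim25, Adar and Trim30a stand highest, at means of 12.6, 11.5 and 11.1, and Ifi44 and Gbp2 lowest, at 0.966 and 1.06.

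Other genes of the interferon and antigen presentation pathways were read in the same way from a list of 110. Of these, 32 had a WT peak, 40 peaks in all. For KLA against Veh none of the 32 loci was called by edgeR, against 3.64% of all genes, and 1 of the 40 peaks was gained, against 3.30% of all peaks. That peak lay 250 bp downstream of the TSS of Socs1, the feedback inhibitor of JAK kinases, with 7 and 7 tags at Veh, 33 and 28 after KLA, and 28 and 28 with RGFP966 + KLA. All 4 libraries with KLA were far above both Veh libraries, and the log2 fold change was 1.83 with an adjusted p of 0.00219. The loci with the smallest p were Parp10 (1.69, adjusted p of 0.0703), Socs1 (0.77, 0.0772), Ifngr1 (-0.87, 0.0778) and Lgals9 (-0.96, 0.124) in log2 fold change. For RGFP966 + KLA against KLA no locus and no peak of the list passed, and the locus with the smallest p was the growth regulator Slfn2 at -1.18 with an adjusted p of 0.176, followed by Stat2 (-0.96), Socs1 (-0.45) and Aim2 (-0.49). For RGFP966 + KLA against Veh, Ifitm6 (-1.18, adjusted p of 0.0356) and Slfn2 (-1.29, adjusted p of 0.0481) were lost and no locus was gained. Peaks at Socs1, Tor3a and Jak1 were gained and peaks at Ifnar2, Ifitm6 and Slfn2 were lost in that comparison, 3 of 40 each, against 6.89% and 2.99% of all peaks. The adjusted p-values ranged from 0.0227 for the Socs1 peak to 0.0487 for the Slfn2 peak.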

How the data were processed

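ATAC-seq was analysed for the 8 libraries in 4 conditions. Reads had been aligned by the authors with Bowtie2 on the mm10 build. HOMER peaks that passed IDR in a condition were merged across conditions, and the authors deposited raw tag counts per peak and library with no depth adjustment and at most 3 tags at a position. The WT and NCoR f/f tables were counted on different peaks and analysed separately.

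The member genes and gene lists were chosen with earlier results of these data known. Tags were divided by the total tags in peaks, which were 116733 to 202523 per WT library. WT peaks that reached 4 tags in any library were tested with the quasi-likelihood test of edgeR 4.0.16 (R 4.3.3), the 6 WT libraries sharing 1 fit with those totals as library sizes. Calls needed a Benjamini-Hochberg adjusted p under 0.05 over all peaks and a change over 2-fold. Tags summed per gene were tested in the same way. Ratios have exact binomial counting intervals. The fits were tested on simulated tags with 200 changed features.

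Values per library are given for called members, the 8 member genes with the most tags and, for 2 comparisons, the 6 largest changes with a mean of at least 20 tags and no overlap. The last rule named only Trim25, for RGFP966 + KLA against KLA. The remaining WT peaks were added after their values were seen. Sequence was read from the GRCm38 (mm10) genome, and exons came from GENCODE. Alternatives were TMM factors, all tags as library size, DESeq2 1.42.0, no filter or 16 tags, the 4 libraries of a comparison, a replicate block, other call rules, other distances and each library left out, which for the summed levels was chosen after seeing the data. Reads in near-identical paralogs (the Gbp, Oas, Ifit and Trim30 families) may be split or lost by mapping. The other steps ran in Python 3.11.15 with pandas 2.3.3, numpy 2.4.6, scipy 1.17.1, and for figures matplotlib 3.10.9. One macrophage marker of the list is not reported here.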

Additional observations from a re-analysis of the deposited data

How the results depend on the processing

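The counts of called peaks and loci depended on the test and on single libraries. DESeq2 with its own size factors called 0 peaks and 0 loci at these genes in each comparison, where edgeR had called 4 peaks and 3 loci with KLA and 3 peaks and 2 loci with RGFP966 + KLA, both against Veh. With 1 library left out, which left 1 library in a condition, the counts against Veh were the same or lower. The share of all peaks or genes called is not given for DESeq2 or for these fits, so the counts cannot be set against it. For RGFP966 + KLA against Veh, a filter of 16 tags left 1 peak, and a distance of 10 kb left 1 peak and 0 loci. RGFP966 + KLA against KLA gave 0 calls under every alternative run. The summed level for RGFP966 + KLA over KLA, 0.869, was 0.836 within 10 kb, 0.753 within 2 kb and 0.976 with all tags of the library as the denominator. For RGFP966 + KLA over Veh it went from 1.28 to 0.991 within 2 kb. For KLA over Veh it stayed between 1.29 and 1.75 with 1 library left out. The NCoR f/f level of 178 per 100000 was 151 within 10 kb, 133 within 2 kb and 45.3 when set against 1000000 tags of the whole library. The Adar promoter call for KLA against Veh was also lost with all tags as library size (adjusted p of 0.10). The causes were not tested. Of 1246 values of single peaks and loci under the alternatives, 1195 kept their side of the threshold, 48 lost it, 3 gained it and 0 called values reversed. Most of the 1246 values belonged to peaks and loci not called in the main fit, which keep their side easily. All 48 losses came from the few that were called. Among the uncalled values, 51 changed sign.

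The deviations of same-numbered libraries correlated at 0.016 to 0.023 over 9698 peaks. With a median of 10 to 17 tags per peak, counting noise weakens such a correlation, so this check cannot show that the libraries were unpaired. A fit with the replicate block called 4 peaks and 3 loci with KLA and 3 peaks and 2 loci with RGFP966 + KLA, both relative to Veh, and 0 between the KLA conditions. Depth is one limit, as 3 to 4 Veh tags stand behind each peak called as gained for KLA.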
